A study of Mus musculus with 6 samples.

Results

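Blood clotting and its reversal run on some of the most abundant mRNAs of the liver, and 35 genes of coagulation and fibrinolysis were followed in mice with and without hepatic SURF4. The 35 genes were taken by name from the 35540 named genes of the deposited table, by summing the transcripts of each gene symbol. By the cell known to make the product, 26 are hepatocyte genes, 6 are endothelial genes (F8, Vwf, Tfpi, Thbd, Procr and Plat), 1 is a gene of stellate cells (Adamts13) and 2 are the enzymes of the vitamin K cycle (Ggcx and Vkorc1). All 35 reached the mean of 0.1 TPM, a length-corrected measure of transcript abundance, that was required for testing, as did 14189 genes in all, although Plat (0.31 TPM) and Adamts13 (0.997 TPM) lay under 1 TPM on average.

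The liver RNA came from 6 mice, of which 3 were Surf4 fl/fl Alb-Cre+ and 3, their littermates and controls, were Surf4 fl/fl Alb-Cre-, with replicates 1 and 3 male and replicate 2 female in each genotype. All 6 mice carried floxed Surf4 alleles, in which exon 2 can be removed, on a C57BL/6J background, and they differed in a Cre transgene driven by the albumin promoter. Cre therefore acts in hepatocytes, while endothelial, stellate and Kupffer cells of the Alb-Cre+ livers keep Surf4. The mice had free access to chow and, by the study's general methods, were fasted overnight before samples were taken, and their age is not given in the sources used here. In the labelled knockout, Surf4 (chromosome 2, 26920040 to 26933928, minus strand, GRCm38) was at 59.0, 71.8 and 54.3 TPM, against 92.5, 94.5 and 92.5 TPM in controls, so the genotypes did not overlap in the direction the labels give (log2 fold change -0.60 ± 0.13 SE, limma unadjusted p = 0.00269, Benjamini-Hochberg adjusted p = 0.9999). TPM add up to 1000000 in each mouse and hold no read numbers, so sequencing depth is unknown and only the spread between mice measures the error. In whole liver, fewer cells of a type and less RNA per cell cannot be told apart. Hepatocyte markers (8 genes, Alb among them) summed to 52730 to 71249 TPM and defined the tissue, while sinusoidal endothelial markers summed to 94.9 to 218 TPM and vascular endothelial markers to 39.6 to 82.1 TPM.

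Clotting proceeds through a chain of serine proteases, most of them made in the liver and released into plasma as inactive zymogens. Thrombin (F2), formed at its end, cuts fibrinogen into fibrin. Tissue plasminogen activator (Plat) and urokinase turn plasminogen (Plg) into plasmin, which dissolves the clot, and inhibitors of the serpin family restrain both arms. Endothelium contributes the surface that keeps blood fluid, together with factor VIII (F8) and its carrier von Willebrand factor (Vwf). SURF4 is a receptor that selects secreted proteins for export from the endoplasmic reticulum, and the study asked what loss of it in hepatocytes does to the liver transcriptome. The comparison here asks whether the mRNAs of clotting proteins, most of which the liver secretes, differed between the genotypes.

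Several of the genes are neighbours in the genome. Fgg, Fga and Fgb, for the gamma, alpha and beta chains of fibrinogen, lie together on chromosome 3 (83007724 to 83049863) with gaps of 11026 and 6513 bases. F7, F10 and Proz follow each other on chromosome 8 with gaps of 1.5 and 4.2 kb, and F11 and Klkb1 lie 4.7 kb apart on the same chromosome. Hrg, Kng2 and Kng1 lie on chromosome 16, 24.2 and 28.4 kb apart. Adamts13 is the nearest of the 35 genes to Surf4 itself, 39.5 kb away on chromosome 2.

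The promoters of the 3 fibrinogen genes are shown because these mRNAs moved together from mouse to mouse, as described below. Each sequence is the 250 bases before the RefSeq start site (GRCm38.p6, strand of the gene, 5′ to 3′), and the capitals mark CTGGGA, the core of the motif through which interleukin 6 is known to act on acute phase genes. The windows are chr3:83007474-83007723 on the plus strand for Fgg, chr3:83025903-83026152 on the plus strand for Fga and chr3:83049864-83050113 on the minus strand for Fgb.
Fgg: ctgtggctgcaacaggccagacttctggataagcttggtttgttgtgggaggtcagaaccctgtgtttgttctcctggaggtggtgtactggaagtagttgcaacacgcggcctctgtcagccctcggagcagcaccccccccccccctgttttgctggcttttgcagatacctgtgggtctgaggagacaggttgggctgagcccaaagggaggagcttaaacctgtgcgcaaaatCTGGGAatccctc
Fga: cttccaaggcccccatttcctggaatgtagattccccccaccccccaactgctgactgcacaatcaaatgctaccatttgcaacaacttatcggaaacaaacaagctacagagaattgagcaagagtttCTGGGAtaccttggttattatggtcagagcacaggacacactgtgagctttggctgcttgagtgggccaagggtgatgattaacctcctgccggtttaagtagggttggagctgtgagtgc
Fgb: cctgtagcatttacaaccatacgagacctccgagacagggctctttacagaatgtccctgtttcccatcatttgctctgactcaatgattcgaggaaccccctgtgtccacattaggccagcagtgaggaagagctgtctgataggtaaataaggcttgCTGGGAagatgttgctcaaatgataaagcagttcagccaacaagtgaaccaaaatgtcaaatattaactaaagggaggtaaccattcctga

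CTGGGA, searched on both strands, was present in all 3 windows, at -13 to -8 of Fgg, -121 to -116 of Fga and -91 to -86 of Fgb, counted back from the start site. The same 6 letters stood in 27.0% of all 32851 promoter windows and in 13 of the 30 windows found for 28 of the 35 genes, so the motif is common. ATTAAC, the reverse complement of the core GTTAAT of the site for the liver factor HNF1, was found at -43 to -38 of Fga and at -29 to -24 of Fgb and not in Fgg. The GENCODE M21 annotation starts Fga at 83026076, inside its window and ahead of its ATTAAC, so this match lies within that annotated gene. GTTAAT on either strand was in 6.43% of all windows and in 5 of the 30, those of F13b, Fga, Fgb, Pzp and Proz. All 5 belong to hepatocyte genes, as do 23 of the 30 windows. The C/EBP core TTNNGNAA was in 15 of the 30 windows and 36.8% of all windows, TATAAA in 2 and 12.4%, AGATAA in 2 and 9.99%, and CCGGAA in 4 and 12.0%. Such matches describe the letters in the window and are not binding sites measured here.

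The 35 mRNAs together summed to between 14801 TPM in Alb-Cre+ replicate 3 and 19074 TPM in Alb-Cre+ replicate 2, which is 1.48% to 1.91% of all TPM. By mean level, 6 genes exceeded 1000 TPM, 13 lay between 100 and 1000 TPM, 9 between 10 and 100 TPM and 7 under 10 TPM. Fga (2785 TPM on average), Fgg (2409.9 TPM) and Serpinc1 (2402 TPM), which encodes antithrombin, stood at the top, and their ranges over the 6 mice overlapped. Fgb (1600.5 TPM), Kng1 (1109 TPM) and F2 (1076 TPM) followed. In this order, 13 of the 34 pairs of neighbouring genes had ranges that did not overlap, among them Serpinc1 and Fgb, Fgb and Kng1, and F2 and Plg. The lowest hepatocyte gene was Thpo, for thrombopoietin, at 7.74 TPM, and 5 of the 6 endothelial genes lay below it.

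**Figure D1:**
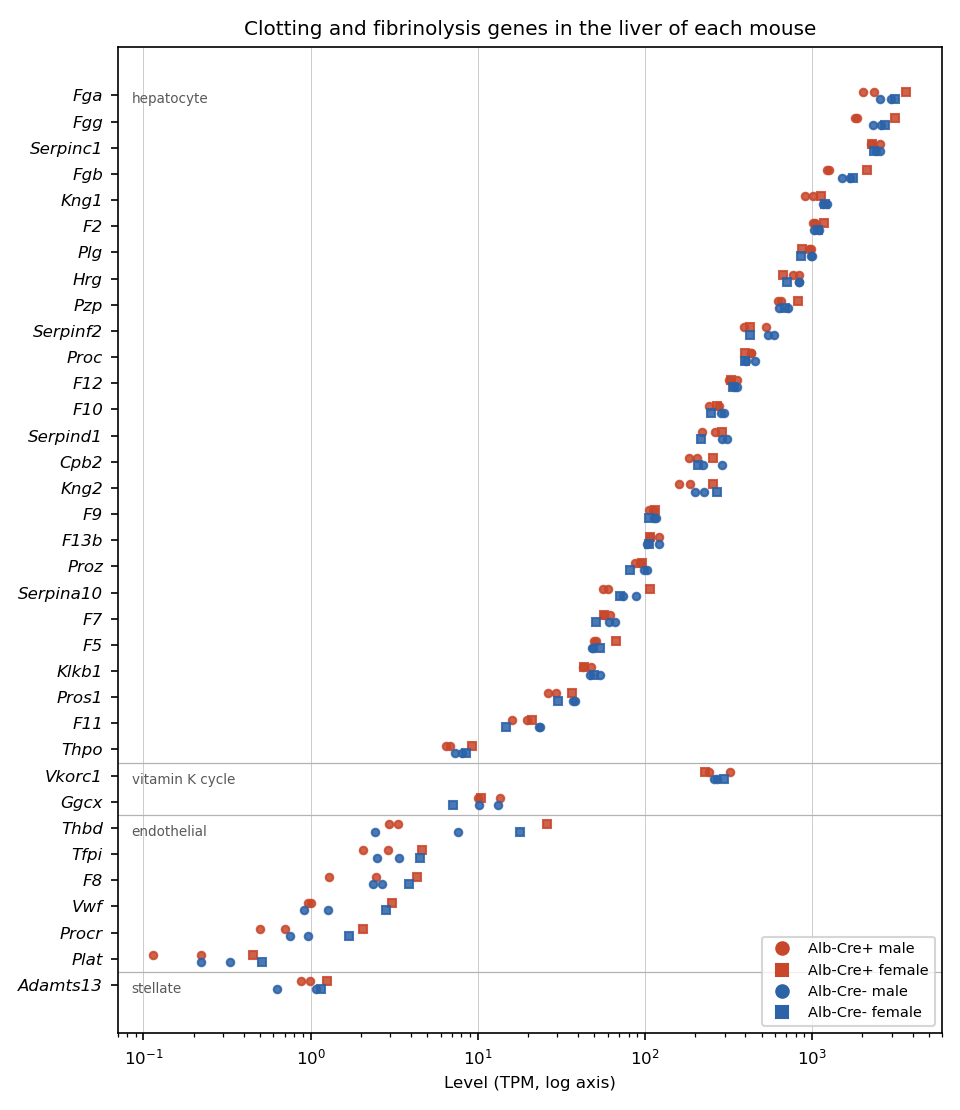
Level of each of the 35 genes in each of the 6 mice, on a logarithmic TPM axis. Red symbols are Alb-Cre+ and blue symbols Alb-Cre- mice, squares are female and circles male, and the rows are grouped by source cell and ordered by mean level. Genotypes intermingle in every row but that of Kng1, and the squares lie to the right of the circles in all 6 endothelial rows.

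Spread between mice was wider in the endothelial genes than in the hepatocyte genes. The endothelial genes also lay mostly at lower levels, and the part of level in this spread was not tested. The highest mouse exceeded the lowest by 1.11-fold (F9) to 1.93-fold (Serpina10) among the 26 hepatocyte genes, with a median of 1.33-fold, and by 2.25-fold (Tfpi) to 10.6-fold (Thbd) among the 6 endothelial genes, with a median of 3.75-fold. F9, for factor IX on the X chromosome, and F12, which starts the contact pathway, were the steadiest, at 105 to 117 TPM and 319 to 357 TPM. Proportions within the genomic clusters were steady in some and not in others. Proz stood at 0.327 to 0.362 of the F10 level and F7 at 0.205 to 0.234 of it in every mouse, whereas the ratio of F11 to its neighbour Klkb1 ranged from 0.296 to 0.499 and that of Hrg to Kng1 from 0.592 to 0.845. Proc and F2, which are not neighbours, had a ratio of 0.336 to 0.445.

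One transcript held over 90% of the TPM in 21 of the 35 genes, and the transcript split matters for reading the others. Serpinc1 was high as a gene, but Serpinc1-201, the transcript that encodes 465 codons, held 7.06% of it, while 48.3% was assigned to Serpinc1-205 (286 codons) and 34.7% to Serpinc1-204, annotated as a target of nonsense-mediated decay. These shares varied little, between 6.87% and 7.33% for Serpinc1-201 over the 6 mice. Kng1 was carried at 79.2% by Kng1-202 (432 codons), the low molecular weight form of kininogen, with 13.5% on the 661-codon Kng1-201. Fgg was split into 72.8% Fgg-201 and 27.2% Fgg-202, which differ at the carboxyl end of the gamma chain. Of the little Vwf, 32.0% was on the full-length Vwf-203 (2813 codons) and the rest mostly on Vwf-210 (nonsense-mediated decay, 35.2%) and Vwf-209 (a processed transcript, 32.0%). Vwf-209 was at 0 in 3 of the 4 male mice, so the level of this gene rests in part on transcripts without the full coding sequence.

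Kininogen levels carry a further limit, since Kng1 and Kng2 are near copies of one another. Of the 31-base words in their transcripts, 26.5% of those of Kng1 also occur in Kng2 and 30.6% of those of Kng2 in Kng1. The longest coding stretch the main transcripts share, printed because reads from it cannot be assigned to either gene, runs over 116 bases, from coding base 752 to 867 in exons 6 and 7 of both. It lies, across an intron, in chr16:23073440-23074745 on the plus strand for Kng1-202 and in chr16:22999874-23000533 on the minus strand for Kng2-203, and was identical in both.
Kng1-202 and Kng2-203: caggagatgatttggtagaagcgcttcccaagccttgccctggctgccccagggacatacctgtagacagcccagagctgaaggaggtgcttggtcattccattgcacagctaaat

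Words were also shared by Vkorc1 (46.0%, with Gm21974) and Klkb1 (43.2%, with Gm45753), and the other 31 genes shared at most 4.11%.

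No coagulation or fibrinolysis gene passed the test for a genotype difference. The limma test with Benjamini-Hochberg adjustment called 0 of the 35 genes at an adjusted p under 0.01, and 0 of all 14189 genes (0%), where the smallest adjusted p was 0.456. The study's own DESeq2 comparison of the genotypes did report a limited set of changed genes at an FDR under 0.01. Surf4 itself was not called by limma on TPM (adjusted p = 0.9999), so the absence of calls does not show that no mRNA differed. At an unadjusted p under 0.05 the count was 0 of 35 genes, against 250 of all genes (1.76%). Log2 fold changes of the 35 ranged from -0.38 (Plat) to 0.19 (Ggcx) with a median of -0.08, and 28 were below 0 and 7 above, where 50.4% of all genes were below 0. After median-of-ratios scaling of TPM, 27 of 35 were below 0, against 49% of all genes. The genotype ranges did not overlap for 1 of the 35 genes, Kng1, and for 4.9% of all genes. With the replicate number as a block, 0 of the 35 genes and 666 of all genes (4.69%) had an unadjusted p under 0.05. Within pairs of the same number, the Alb-Cre+ mouse was the higher in 12 of the 35 genes for replicate 1, 25 for replicate 2 and 4 for replicate 3, against 44.6%, 66.7% and 33.2% of all genes, so the female pair and the male pairs leaned in opposite directions in the 35 genes and in all genes. In 13 of the 35 genes and 16% of all genes the female Alb-Cre+ mouse was above the female control while each male Alb-Cre+ mouse was below each male control, and the reverse held in 0 of the 35 and 3.21% of all genes. After median-of-ratios scaling this held for 8 genes, all of them among the 13, and for 9.35% of all genes.

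**Figure D2:**
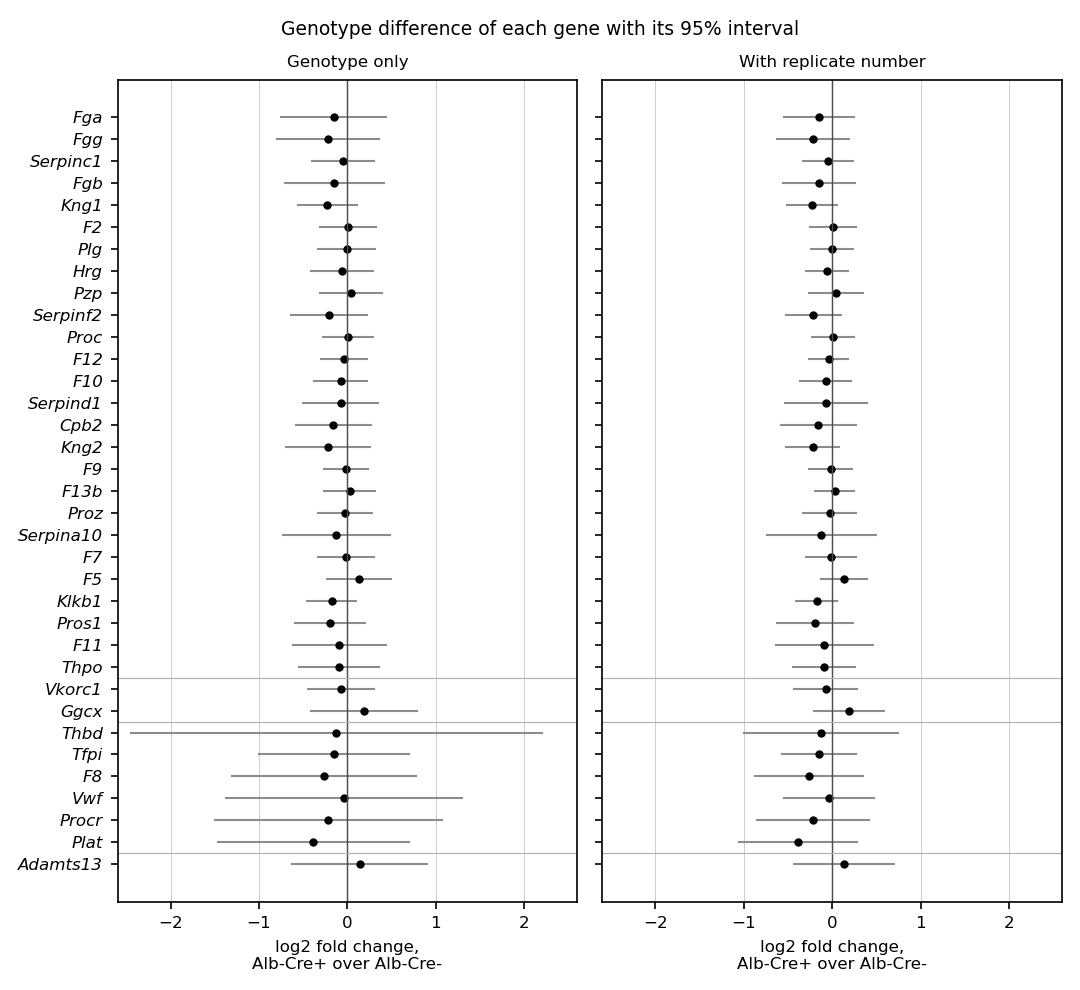
Log2 fold change of each of the 35 genes, Alb-Cre+ over Alb-Cre-, on log2(TPM + 0.1), as points with bars for the 95% confidence interval of the limma fit, without (left) and with (right) the replicate number as a block. Every interval in both panels includes 0, and the widest, that of Thbd, runs from -2.45 to 2.20 without the block.

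The 95% intervals give the precision of each value, without adjustment for the number of genes tested. The adjusted test asks for more, since the interval of Surf4, -0.92 to -0.29, excluded 0 and Surf4 was not called. For the 26 hepatocyte genes the intervals reached 0.25 (F9) to 0.61 (Serpina10) log2 units to either side, with a median of 0.36. For the 6 endothelial genes they reached 0.84 (Tfpi) to 2.32 (Thbd), with a median of 1.18, and exceeded 1 log2 unit in 5 of the 6 without the block. With the block the intervals of the 6 genes reached 0.41 (Tfpi) to 0.87 (Thbd) to either side, and 0 of the 6 exceeded 1 log2 unit. The interval of Thbd narrowed to -0.99 to 0.74 and that of Vwf to -0.55 to 0.47.

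Among the procoagulant proteases and cofactors, prothrombin mRNA (F2) was at 1048.5, 1180.5 and 1009 TPM in Alb-Cre+ mice and at 1028, 1083 and 1106 TPM in controls, and the ranges overlapped throughout. Its log2 fold change was 0.01 ± 0.13 (SE, n = 3 per genotype, limma adjusted p = 0.9999). F9, F7 and F10, the vitamin K-dependent enzymes that lead to thrombin, had values of -0.01, -0.02 and -0.08, and F5, the cofactor that speeds prothrombin activation, had the highest of the group at 0.13 (95% interval -0.22 to 0.49).

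All 5 contact system genes had fold changes below 0, none past the test. Kng1, the source of bradykinin and a cofactor of the contact proteases, was at 1020.4, 1140.3 and 911 TPM in Alb-Cre+ mice and at 1166, 1196 and 1222 TPM in controls. Every Alb-Cre+ value was below every control value, which held in this direction for 385 of all genes (2.71%). The log2 fold change was -0.23 ± 0.14 (limma unadjusted p = 0.150, adjusted p = 0.9999), and within pairs of the same replicate number the differences were -0.19, -0.07 and -0.42. Kng2, its near copy, overlapped between genotypes, at 186, 255.5 and 161 TPM against 199.7, 269 and 226 TPM (log2 fold change -0.22 ± 0.20). Summing the pair removes the split of shared reads. The sum stood at 1072 to 1396 TPM in Alb-Cre+ mice and 1366 to 1465 TPM in controls, with overlap. After median-of-ratios scaling it was 1199.8 to 1233 and 1365 to 1509, without overlap. The share of all genes without overlap on that scale was not computed, and most of the sum is Kng1, which did not overlap by itself. The contact proteases Klkb1 (prekallikrein, -0.18), F11 (-0.09) and F12 (-0.04) overlapped.

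The fibrinogen chains were the most abundant group and varied most among the highly expressed genes. Fga was at 2017, 3678 and 2340.1 TPM in Alb-Cre+ mice and at 2559.8, 3132 and 2981 TPM in controls. Fgb was at 1228, 2129.5 and 1273 TPM against 1515, 1767 and 1690.2 TPM, and Fgg at 1814, 3128 and 1855 TPM against 2317, 2742 and 2604 TPM. Alb-Cre+ replicate 2, a female, was the highest of all 6 mice for each chain and the 2 male Alb-Cre+ mice the lowest, so the genotypes overlapped. The log2 fold changes were -0.15 ± 0.25, -0.15 ± 0.24 and -0.22 ± 0.25. Without Alb-Cre+ replicate 2, those of Fgb and Fgg were -0.40 and -0.47 (limma, unadjusted p = 0.0484 and 0.0385, adjusted p = 0.946 for both). In that fit 3.56% of all genes had an unadjusted p under 0.05. It compared male Alb-Cre+ mice only with controls of both sexes, so genotype and sex are mixed in these values. The 3 chains summed to 5060 to 8936 TPM. F13b, the carrier subunit of the enzyme that crosslinks fibrin, was nearly flat at 103 to 122 TPM.

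The chains kept close proportions while their levels moved by up to 1.82-fold. The ratio of Fga to Fgb was 1.64 to 1.84 over the 6 mice. The ratio of Fgg to Fgb was 1.477, 1.469 and 1.457 in Alb-Cre+ mice and 1.529, 1.551 and 1.541 in controls, so that it was 4.71% lower in Alb-Cre+ mice (1.47 ± 0.010 against 1.54 ± 0.011, SD, n = 3 each) and the genotypes did not overlap. An exact 2-sided permutation test gave p = 0.1, the smallest that 3 against 3 mice allow. This ratio was the 1 of 12 computed whose genotypes did not overlap, and it was singled out after its values were seen.

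**Figure D3:**
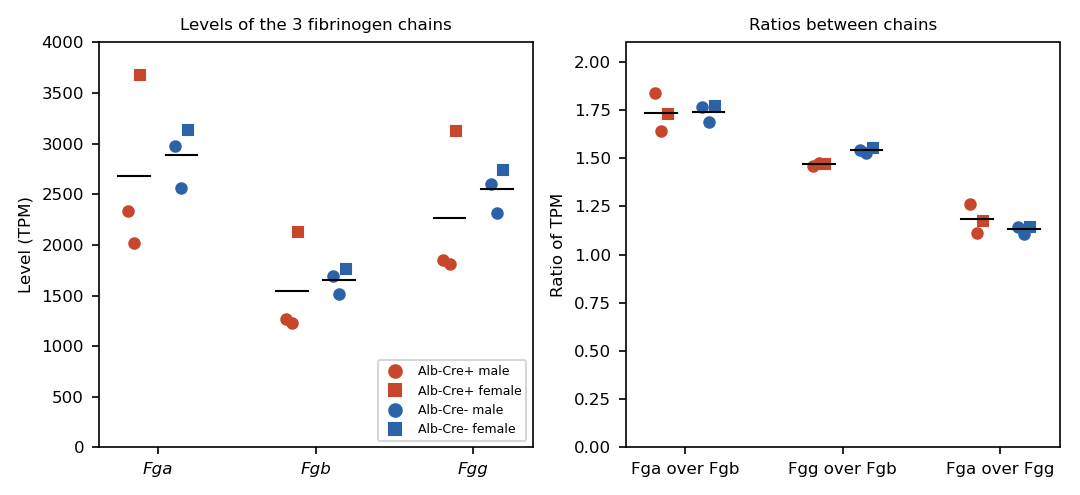
Level of the 3 fibrinogen chains (left, TPM) and their pairwise ratios (right) in each mouse, in Alb-Cre+ (red) and Alb-Cre- (blue) mice, females as squares and males as circles, with black lines for the group means. Levels of the genotypes overlap, while the ratio of Fgg to Fgb lies between 1.457 and 1.477 in Alb-Cre+ mice and between 1.529 and 1.551 in controls.

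Of the plasma anticoagulants, Serpinc1 was at 2551, 2281 and 2256 TPM in Alb-Cre+ mice and 2426, 2345 and 2554 TPM in controls, with full overlap (log2 fold change -0.05 ± 0.15). Proc, for protein C, was level between genotypes at 422 ± 21.8 against 420.1 ± 32.2 TPM (mean ± SD, n = 3), and its cofactor Pros1 stood at 26.3 to 36.4 against 30.2 to 38.1 TPM (-0.20). Serpina10, the inhibitor that acts with protein Z, was at 59.9, 108 and 55.9 TPM against 74.2, 71.3 and 88.6 TPM, and the female Alb-Cre+ mouse alone exceeded the controls (-0.13 ± 0.26). Proz (-0.03) and Serpind1, heparin cofactor II (-0.07), had values near 0. In the 4 male mice alone, Pros1 (-0.43), Serpina10 (-0.49) and F11 (-0.40) had unadjusted limma p-values of 0.0175, 0.0187 and 0.0449, with an adjusted p of 0.96 for each. These were 3 of the 35 genes, against 3.86% of all genes.

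Of the plasma genes of fibrinolysis, Plg was at 990.6, 869 and 964 TPM in Alb-Cre+ mice and 980.5, 855 and 1001 TPM in controls, and the female was the lowest of each genotype (log2 fold change -0.01 ± 0.14). Serpinf2, the plasmin inhibitor, had the lowest value of this group at -0.21 ± 0.18, with 450 ± 74.2 against 521 ± 85.6 TPM. Cpb2, the carboxypeptidase that shields fibrin from plasmin, was at -0.16, Hrg at -0.06 and the broad protease inhibitor Pzp at 0.04. Thpo, the growth factor of platelet precursors, was at 6.83, 9.25 and 6.48 TPM against 8.05, 8.47 and 7.35 TPM (-0.10 ± 0.19).

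The vitamin K cycle makes the clotting factors able to bind calcium and membranes. Vkorc1, the target of warfarin, was at 323, 229 and 243 TPM in Alb-Cre+ mice and 270.1, 299 and 259.8 TPM in controls, with overlap (log2 fold change -0.07 ± 0.16). Ggcx, the carboxylase, was far lower at 13.6, 10.4 and 10.1 TPM against 13.2, 7.09 and 10.2 TPM, and its 0.19 ± 0.26 was the highest of the 35 fold changes. Adamts13, the protease that trims von Willebrand factor and the nearest of the 35 genes to Surf4, was at 0.986, 1.26 and 0.875 TPM against 1.08, 1.15 and 0.632 TPM, again with overlap (0.14 ± 0.33).

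Among the endothelial genes, whose cells keep Surf4, no genotype call was made either, and the mice spread more widely. All 6 were below 0, with a median log2 fold change of -0.18, against -0.07 for the 26 hepatocyte genes, of which 21 were below 0, and 50.4% of all genes below 0. F8 was at 2.47, 4.36 and 1.29 TPM in Alb-Cre+ mice and 2.69, 3.88 and 2.38 TPM in controls (-0.26 ± 0.44), and Vwf at 0.967, 3.08 and 1.01 TPM against 0.916, 2.84 and 1.27 TPM (-0.04 ± 0.57). Thbd, for thrombomodulin, which turns thrombin into an activator of protein C, was at 2.96, 26.0 and 3.36 TPM against 2.44, 18.0 and 7.67 TPM (-0.12 ± 0.99). In all 3 genes the female of each genotype was the highest, so the genotypes overlapped. Plat was at 0.220, 0.451 and 0.115 TPM against 0.329, 0.509 and 0.222 TPM and had the lowest of the 35 fold changes (-0.38 ± 0.46). Summed TPM were 8.34 to 40.6 in Alb-Cre+ mice and 10.7 to 31.5 in controls for the endothelial genes, and 14539 to 18793 against 16515 to 17767 for the hepatocyte genes. The median of the endothelial genes was -0.71 without Alb-Cre+ replicate 2, 0.16 without Alb-Cre+ replicate 3 and 0.07 without Alb-Cre- replicate 2. Its sign thus depended on which mice were kept. Leaving out any mouse leaves the genotypes with unequal shares of females, and all 6 genes were higher in females, by 0.76 to 2.52 log2 units. The part of sex in these values was not tested. In the 4 males alone the median was -0.45.

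**Figure D4:**
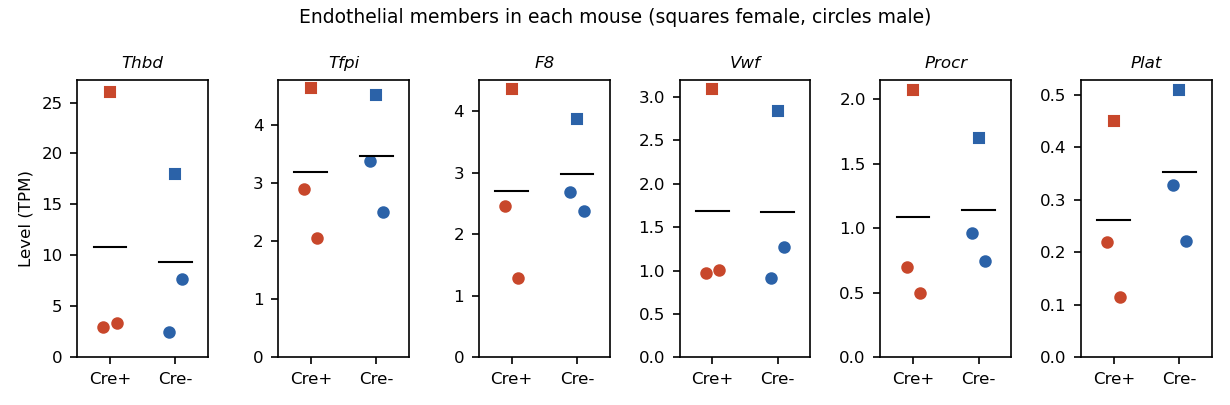
Level (TPM, axes from 0, a scale for each gene) of the 6 endothelial genes in Alb-Cre+ (red) and Alb-Cre- (blue) mice, females as squares, males as circles, and group means as black lines. In each panel both females lie above all 4 males, and the genotypes overlap.

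Further genes of the same system were examined for context. Of 22 other coagulation and fibrinolysis genes, 17 were tested and 0 passed. Their fold changes were above 0 in 4 and below in 13, where 50.4% of all genes were below 0. F13a1, F2rl2, F2rl3, Serpina5 and A2m were under the minimum level. Plau, for urokinase, was at 0.737, 0.926 and 0.579 TPM in Alb-Cre+ mice and 1.14, 1.27 and 0.985 TPM in controls without overlap (log2 fold change -0.55 ± 0.29, limma unadjusted p = 0.0977, with the block unadjusted p = 0.0447). Apoh, beta-2 glycoprotein I, did not overlap either, at 2788, 2826 and 2504 TPM against 3229.5, 3373.5 and 3124.5 TPM (-0.26 ± 0.16, limma unadjusted p = 0.136). Plau and Apoh were the 2 of the 17 without overlap, against 4.9% of all genes. Gas6, a vitamin K-dependent ligand related to protein S, was at -0.44 and overlapped (limma with the block, unadjusted p = 0.0216). Of 11 genes for export, processing and clearance of clotting factors, 0 passed, with 7 above 0 and 4 below. Among them Lman1 and Mcfd2, the receptor complex that carries factors V and VIII out of the endoplasmic reticulum, were at -0.11 ± 0.12 and -0.00056 ± 0.17. Of 8 liver transcription factors 0 passed, with 5 above 0 and 3 below. Onecut1 was at 6.12, 6.26 and 3.24 TPM against 2.79, 3.47 and 1.66 TPM (0.95 ± 0.37, limma unadjusted p = 0.0358, with the block unadjusted p = 0.00137 and adjusted p = 0.431), and Foxa2 was at 0.39 (unadjusted p = 0.0395 with the block). Their ranges overlapped between genotypes. In limma with the block, 2 of the 8 transcription factors and 2 of the 17 other coagulation and fibrinolysis genes had an unadjusted p under 0.05. Over all genes 4.69% had one in that fit, and 0 had an adjusted p under 0.01.

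The largest differences within the set lay between the females and the males. Both females are replicate 2, so sex and replicate number cannot be told apart, and there were 2 females against 4 males. In a limma fit with genotype and sex, 0 of the 35 genes were called at an adjusted p under 0.01 (0.514% of all genes) and 2 under 0.05 (7.18% of all genes), Thbd and Vwf. At an unadjusted p under 0.05, 11 of the 35 differed (28.7% of all genes), all of them higher in females, as were 25.6% of all genes, so the count of 11 of 35 lies near that of all genes. The median log2 difference over all genes was 0.26, higher in females, and 0.05 after median-of-ratios scaling. All 6 endothelial genes were among the 11, together with Fga, Fgb, Fgg, Kng2 and F5.

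Thbd averaged 22.0 TPM in the 2 females, at 26.0 and 18.0 TPM, and 2.44 to 7.67 TPM in the 4 males, a log2 difference of 2.52 ± 0.45 (limma adjusted p = 0.0296). Vwf was at 3.08 and 2.84 TPM in females and 0.916 to 1.27 TPM in males (1.43 ± 0.23, adjusted p = 0.0226). This call was lost with the most abundant transcript only, Vwf-210 (0.73, limma adjusted p = 0.283), and the non-coding Vwf-209 was at 1.39 and 1.16 TPM in females and at 0, 0, 0 and 0.679 TPM in males. The differences stayed above 0 when each mouse was left out, at 2.03 to 3.01 for Thbd and 1.32 to 1.55 for Vwf. The calls were not kept in every such fit. Leaving out each mouse in turn, Thbd had an adjusted p under 0.05 in 2 of 6 fits (limma adjusted p = 0.00507 to 0.327) and Vwf in 1 of 6 (0.0405 to 0.259), while 0.127% to 4.19% of all genes had one, and without a variance trend Thbd was at 0.0503. Procr, the endothelial receptor of protein C, was at 2.07 and 1.70 TPM against 0.501 to 0.967 TPM (1.28 ± 0.29, adjusted p = 0.0509). F8 (0.92), Plat (0.89) and Tfpi, the inhibitor of tissue factor (0.76), had adjusted p-values of 0.114, 0.139 and 0.0962. Both females lay above all 4 males in each of the 6 genes, as did 36.6% of all genes. After median-of-ratios scaling the values of the 6 genes were 0.55 (Tfpi) to 2.30 (Thbd), with unadjusted p-values under 0.05 for 6 of 6 against 15.7% of all genes higher at that level. Vwf and Thbd then had adjusted p-values of 0.0335 and 0.0461.

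Markers of other liver cells moved the same way, as did most genes, and their part in the result was not tested. On TPM, 76.7% of all genes were higher in females. All 8 Kupffer cell markers were higher in females at an unadjusted p under 0.05 in limma, against 25.6% of all genes. An adjusted p under 0.05 was reached by 7 of them, against 7.18% of all genes in either direction. The Kupffer list summed to 580 and 633 TPM in females and 168 to 249.99 TPM in males. Vascular endothelial markers, 7 of 8 above 0, summed to 78.7 and 82.1 TPM against 39.6 to 61.4 TPM, with differences of -0.09 to 1.42 log2 units. Sinusoidal endothelial markers, 8 of 8 above 0, summed to 199 and 218 TPM against 94.9 to 167 TPM. The 6 endothelial coagulation genes summed to 31.5 and 40.6 TPM against 8.34 to 14.8 TPM. Of the 6 platelet and megakaryocyte markers, 3 were tested and all 3 were above 0, and the list summed to 5.93 and 8.44 TPM against 2.36 to 3.84 TPM. The median log2 difference was 1.10 for the endothelial coagulation genes and 0.46 and 0.53 for the vascular and sinusoidal markers. It was 1.49 for the Kupffer markers and 0.07 for the hepatocyte markers. After median-of-ratios scaling these medians were 0.91, 0.24, 0.32, 1.27 and -0.15. On TPM, the medians of the stellate, lymphocyte, cholangiocyte and platelet markers were 0.65, 0.68, 0.27 and 0.38.

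**Figure D5:**
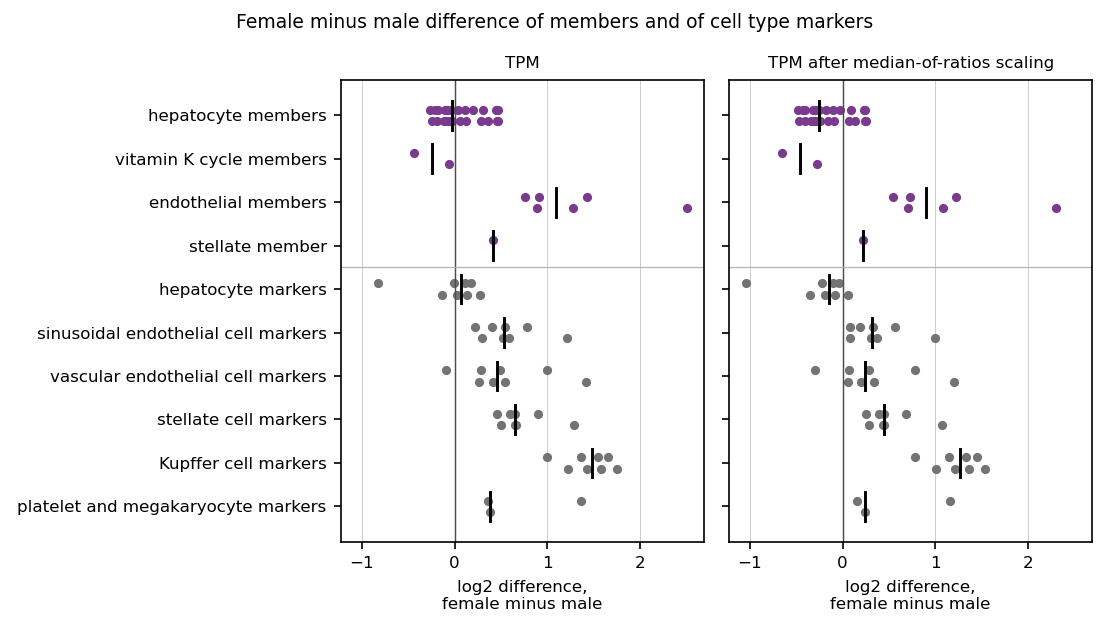
Log2 difference, female minus male, of each tested gene in the 4 classes of coagulation and fibrinolysis genes (purple) and in 6 lists of cell type markers (grey), with the median of each row as a black line, for TPM (left) and after median-of-ratios scaling (right). The endothelial genes lie at 0.76 to 2.52 on TPM, apart from the hepatocyte genes at -0.27 to 0.47, and the hepatocyte median moves from -0.03 to -0.25 with the scaling.

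For the hepatocyte genes the sign depended on the scale. On TPM, 12 of 26 were higher in females and 14 lower, with a median of -0.03 (76.7% of all genes were higher), and 5 (Fga, Fgb, Fgg, Kng2 and F5) had an unadjusted p under 0.05, all higher. After median-of-ratios scaling, 7 were higher and 19 lower, with a median of -0.25 (55.5% of all genes were higher), and 0 higher and 11 lower genes had an unadjusted p under 0.05, against 10.7% of all genes lower at that level. The 11 were F7, F9, F10, F12, Klkb1, F13b, Proc, Proz, Plg, Serpinf2 and Hrg, with differences of -0.24 to -0.48. No hepatocyte gene had an adjusted p under 0.05 on either scale. Plg, Hrg and Proc were below all 4 males in both females on TPM, at 855 and 869 TPM against 964 to 1001 TPM for Plg, which 5% of all genes did. Fga, Fgb and Fgg were 0.47, 0.46 and 0.46 higher in females on TPM (unadjusted p = 0.0403, 0.0355 and 0.0358, limma adjusted p = 0.155, 0.147 and 0.147) and 0.25, 0.24 and 0.25 after scaling. Among Alb-Cre+ mice alone the difference of Fgb was 0.77 and among controls 0.14.

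Of the 17 other coagulation and fibrinolysis genes tested, 2 had an adjusted p under 0.05 between the sexes. Plaur, the urokinase receptor, was at 9.17 and 4.55 TPM in females and 0.797 to 2.46 TPM in males (2.48 log2 units, limma adjusted p = 0.0436), and Gas6 at 0.90 (adjusted p = 0.0498). After scaling 0 of 17 had an adjusted p under 0.05 in limma, and 7.18% and 6.18% of all genes had one on TPM and after scaling. At an unadjusted p under 0.05 there were then 6 of 17, 4 higher and 2 lower in females, against 26.4% of all genes. Plaur and Gas6 were named after their values were seen.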

How the data were processed

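Liver RNA-seq of 6 mice was used. The authors deposited TPM per transcript and mouse (GRCm38), labelled as salmon output, while the study's methods name STAR and RSEM, and the submitters' processing notes list STAR, RSEM, Salmon, DESeq and DESeq2. A deposited table of the authors' DESeq2 comparison (fold changes and p-values) was not used. TPM were summed per gene symbol, and 163 transcripts without a symbol (0.0515 to 0.0887% of TPM per mouse) were left out.

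The 14189 genes averaging 0.1 TPM or more entered limma 3.58.1 (R 4.3.3) as log2 values after adding 0.1 TPM, with genotype as the only factor, empirical Bayes variances with a trend, and Benjamini-Hochberg adjustment at 0.01. Fold changes are on this scale, which understates those of low genes. Sex was tested with genotype as a covariate. Same-numbered mice deviated together from their group means (r = 0.49, 0.69 and 0.45 over 10635 genes, against -0.54 to 0.24 for other pairs), so a fit with replicate number as a block was also run. The other alternatives were sex as a covariate, males only, other pseudocounts, filters and scalings, no trend, and leaving out each mouse. Nothing says whether same-numbered mice were littermates. Positions and transcript types are from GENCODE M21 and promoters from RefSeq. The script was tested on simulated data.

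The 35 genes and all lists were chosen with earlier results of these data known. All 35 are named, in full where the genotypes did not overlap, p was under 0.05 or the gene was the highest of its role group, and other members where a result turned on them. Genes of the other pathway lists are named where the genotype ranges did not overlap or the genotype p was under 0.05, and any other gene was named after its values were seen. One gene of the other lists is not reported here, and the counts of its list leave it out.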

Additional observations from a re-analysis of the deposited data

Results flagged for a closer look

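In 13 of the 35 genes the female Alb-Cre+ mouse was above the female control, while each male Alb-Cre+ mouse was below each male control. This drew attention because the genotype difference had opposite signs in the sexes, and it held for 16% of all genes tested. The opposite arrangement occurred in 0 of the 35 genes and 3.21% of all genes. The log2 difference in the females, Alb-Cre+ minus Alb-Cre-, was 0.52578 for F11, 0.13115 for F9, 0.12002 for F10, 0.23205 for Fga, 0.26895 for Fgb and 0.19014 for Fgg. It was 0.26934 for Pros1, 0.24059 for Proz, 0.41776 for Serpind1, 0.59833 for Serpina10, 0.29627 for Cpb2, 0.12685 for Thpo and 0.27024 for Procr. There was 1 female per genotype, so these differences have no replicate of their own.

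A limma interaction of genotype and sex was fitted, with limits. With 1 female per genotype its error comes from the males alone (2 residual degrees of freedom before moderation), and the 13 genes were picked for the sign pattern that it measures. At an adjusted p under 0.05 it called 0 of all 14189 genes, and the smallest adjusted p among the 35 genes was 0.775. The unadjusted p was under 0.05 in 4 of the 35 genes and 862 of all genes (6.08%). The 4 were Serpina10 (interaction 1.09 ± 0.23 SE, limma unadjusted p = 0.00793), F11 (0.92 ± 0.25, unadjusted p = 0.0184), Pros1 (0.70 ± 0.20, unadjusted p = 0.0231) and Serpind1 (0.74 ± 0.25, unadjusted p = 0.0356). After median-of-ratios scaling the opposite signs held in 8 of the 35 genes, all among the 13, and in 9.35% of all genes. The scaling factors were 1.16 and 1.06 for the Alb-Cre+ and control females and 0.869 to 1.00 for the 4 males.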

How the results depend on the processing

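The genotype result, 0 genes called, was kept under every alternative for the 35 coagulation and fibrinolysis genes, and for all genes except without Alb-Cre+ replicate 1, where 1 gene was called (a range of 0 to 1 when leaving out each mouse). That gene was Gm10240, at 159 and 134 TPM in the remaining Alb-Cre+ mice and 0 in the left-out mouse and all controls. The count of the 35 genes at an unadjusted p under 0.05 was 3 in males only (F11, Pros1 and Serpina10, against 3.86% of all genes) and 0 to 3 when leaving out each mouse (1.3% to 3.56% of all genes), with Fgb, Fgg and Serpina10 the 3 without Alb-Cre+ replicate 2 (3.56%). With the replicate block, 0 of the 35 genes changed direction or passed the threshold, and the unadjusted count over all genes was 666 in place of 250. Leaving out each mouse gave -0.71 to 0.16 for the endothelial median log2 fold change and -0.89 to 0.26 for their summed TPM. Each such fit leaves the genotypes with unequal shares of females, and the part of sex in these ranges was not tested. Of 558 fits of single genes under all genotype alternatives, 505 kept the direction and 53 reversed it, 46 of these when a mouse was left out. Otherwise F2 (-0.0521), Pzp (-0.0730) and Vkorc1 (0.0813) reversed in males only, Plg (0.0023) after median-of-ratios scaling with and without the block, and Proc (-0.00962) and Vwf (0.0810) with the most abundant transcript only. The ranges when leaving out each mouse, for the 23 genes that reversed at least once, were Adamts13 -0.11 to 0.28, F11 -0.31 to 0.0286, F13b -0.0311 to 0.10, F2 -0.0596 to 0.0538, F5 -0.00754 to 0.21, F7 -0.12 to 0.0664, F8 -0.67 to 0.16, F9 -0.0598 to 0.0186, Fga -0.41 to 0.0265, Ggcx -0.0458 to 0.40, Hrg -0.14 to 0.0235, Plg -0.0762 to 0.051, Proc -0.0277 to 0.0702, Procr -0.76 to 0.16, Proz -0.13 to 0.0367, Pzp -0.0804 to 0.12, Serpina10 -0.43 to 0.0495, Serpind1 -0.23 to 0.0359, Tfpi -0.45 to 0.12, Thbd -1.13 to 0.55, Thpo -0.25 to 0.00205, Vkorc1 -0.22 to 0.0233 and Vwf -0.55 to 0.40. The cause of these reversals was not tested. Only Cpb2, F10, F12, Fgb, Fgg, Klkb1, Kng1, Kng2, Plat, Pros1, Serpinc1 and Serpinf2 kept their sign in every fit run, each below 0.

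For the female minus male difference, the count over all genes was 31 without a variance trend, 1019 at an adjusted p under 0.05 and 3 to 38 when leaving out each mouse, where the count of 3 (Ddx3y, Eif2s3y and Sult2a2) came from leaving out either female. Of the 35 genes, 2 passed at an adjusted p under 0.05 (0 to 2 when leaving out each mouse), and 0 to 1 at 0.01 when leaving out each mouse, Thbd being the 1 without Alb-Cre- replicate 3 (adjusted p = 0.00507). At an unadjusted p under 0.05 the count of the 35 was 18 after median-of-ratios scaling (26.4% of all genes), 7 without a trend (27.5%) and 4 to 11 when leaving out each mouse (14.6% to 26.1%), the 4 without Alb-Cre+ replicate 2 being F11, Serpind1, Thbd and Vwf. Of 383 fits of single genes, 364 kept the direction and the side of the threshold, 18 reversed the direction, and 1, that of Thbd above, newly passed the threshold. Under median-of-ratios scaling, Cpb2 (-0.16), F2 (-0.11), Kng1 (-0.096), Pros1 (-0.18) and Pzp (-0.024) reversed, and with the most abundant transcript only, Pros1 (-0.12). When leaving out each mouse the reversing genes ranged over Cpb2 -0.28 to 0.40, F10 -0.22 to 0.0678, F11 -0.67 to 0.25, F9 -0.13 to 0.0845, Pros1 -0.31 to 0.38, Proz -0.31 to 0.0958, Serpina10 -0.19 to 0.90, Serpind1 -0.47 to 0.26 and Vkorc1 -0.29 to 0.17. The median-of-ratios alternative changes the scale of each mouse, which moved the median of all genes from 0.26 to 0.05, and the cause of the other changes was not tested. The alternatives with the most abundant transcript only, and with block and scaling together, were added after the data were seen. TPM limit what can be said of the least expressed genes, since Plat and Adamts13 could not be tested at a minimum of 1 TPM.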

Other observations

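All 3 pairs of the same replicate number had the same sign of the genotype difference in 6 of the 35 genes. The share of all genes with this pattern was not computed, so the count only describes the 35 and sets them apart from no other genes.

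Lman1, Mcfd2 and the asialoglycoprotein receptor genes Asgr1 and Asgr2, which clear desialylated clotting factors, were within 0.17 log2 units of 0 between genotypes. Hnf4a, a master factor of hepatocyte genes, was at 0.08. Ttr and Serpina6, both on the hepatocyte marker list and both plasma carriers made by hepatocytes, did not overlap between genotypes (log2 fold changes -0.37 and -0.65, limma unadjusted p = 0.0197 for Serpina6, adjusted p = 0.9999). They were the 2 of the 8 hepatocyte markers without overlap, against 4.9% of all genes. Of the 8 markers, 6 were below 0 and 2 above, against 50.4% of all genes below 0, and 0 passed the test.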
